A study of Mus musculus with 6 samples.

Results

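Expression of the transcriptional coactivators YAP (gene Yap1) and TAZ (gene Wwtr1), of their DNA-binding partners Tead1, Tead2, Tead3 and Tead4, and of 4 genes linked to them, Ankrd1, Amotl2, Axl and Ajuba, was compared between mouse livers in which Prdx1, the gene of the antioxidant enzyme peroxiredoxin 1, was deleted through Alb-cre and control livers. The 10 genes were chosen by name from the 55401 genes of the deposited table. Earlier results of these data were known when they and the lists below were chosen, so their shares of calls are descriptions only. All 10 passed the filter on low counts. The 3 knockout mice had the genotype Prdx1(lox/lox);Alb-cre, in which the albumin promoter drives Cre recombinase, so that floxed DNA is cut out in hepatocytes and in cells descended from albumin-expressing progenitors. The 3 control mice had the genotype Prdx1(lox/lox), with the same floxed alleles and no Cre. All 6 were males that began the diet at an age of 8 weeks and stayed on it for 5 weeks. The labels do not spell out MCD, an abbreviation in common use for chow deficient in methionine and choline. No control carried Cre, so the loss of Prdx1 and the presence of Cre cannot be told apart, and no mouse on another diet was analysed here.

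YAP and TAZ are the effectors of the Hippo pathway. MST kinases activate LATS kinases, and LATS phosphorylates YAP and TAZ, which keeps them in the cytoplasm and leads to their breakdown. When phosphorylation is low they enter the nucleus, bind TEAD proteins and switch on genes of growth, cytoskeleton and matrix. In liver YAP is best known for its high level in bile duct cells, its low activity in quiescent hepatocytes and its role in ductular and stellate cell activation after injury. Localisation and phosphorylation are not read by RNA sequencing, so the values here are transcript levels only.

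Deposited counts totalled 58790874 to 78291273 per library in the knockouts and 63189210 to 67319086 in the controls, with about 4 deposited counts to a read pair. Prdx1 was at 88.3 ± 19.6 CPM (counts per library total, scaled by TMM factors) in the knockouts and 626 ± 49.5 CPM in the controls (SD, n = 3 each), in the direction of the labels. Each library is from a separate mouse by the study's design text, and no litter, batch or date of sequencing is named in the labels. Differences were tested in edgeR (quasi-likelihood F test, p adjusted by Benjamini-Hochberg), and a gene is said to have risen, fallen or passed where its adjusted p was under 0.05. Of all 18931 tested genes 37.9% passed, 19.9% as higher in the knockouts and 18.0% as lower.

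Ankrd1, Axl, Tead2 and Amotl2 rose in knockout livers and Yap1 fell slightly, while Wwtr1, Tead1, Tead3, Tead4 and Ajuba did not pass. Thus 5 of the 10 passed, against 37.9% of all tested genes, 4 of them as higher (19.9%) and 1 as lower (18.0%). Their median log2 fold change was 0.39, against 0.05 over all tested genes. The 5 that passed were also the 5 whose groups did not overlap in CPM, 4 higher and 1 lower, against 28.8% of all tested genes higher and 24.2% lower without overlap (53.0% in all). With library sizes alone the median of all genes moved to 0.41 and that of the 10 to 0.76. Relative to all genes the 10 stood at 0.35 under both scalings. Other factors shift every gene by nearly the same amount, so this difference was bound to stay and is no sign of stability. The 4 rises passed under every scaling tried and the fall of Yap1 did not. In the same livers hepatocyte markers were lower and markers of bile duct, stellate and macrophage cells higher, as described after the pathway genes. In bulk tissue fewer cells of a type and less RNA per cell cannot be told apart.

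**Figure D1:**
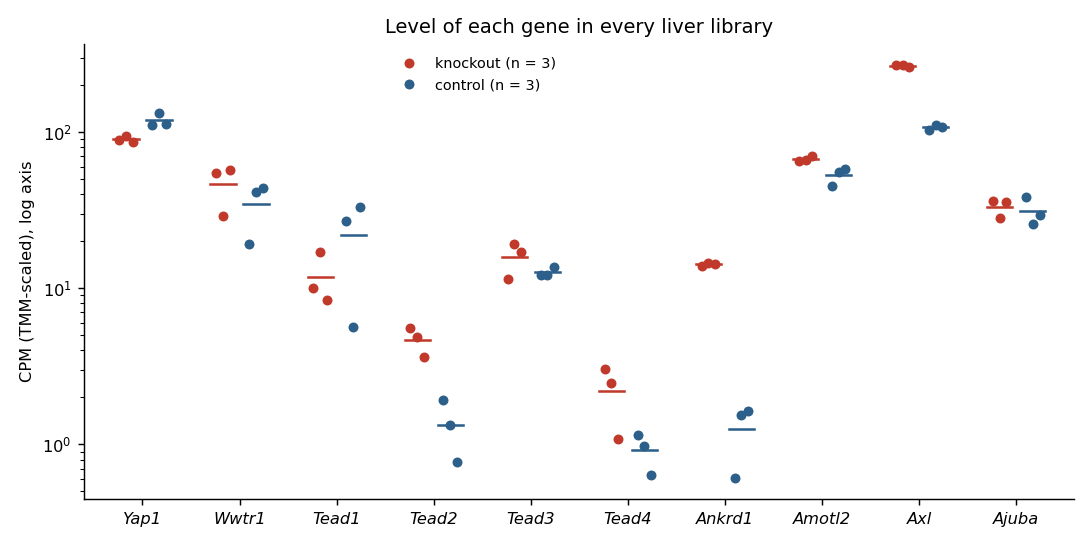
CPM of the 10 genes in every liver library on a log axis, with knockout points left of control points and a bar at each mean (n = 3 each). Ankrd1 and Axl are far apart between the genotypes and tight within the knockouts, while Wwtr1 and Tead1 spread widely within both groups.

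Yap1 (ENSMUSG00000053110, chr9:7931999-8004596, minus strand, GRCm38) was at 89.4, 94.4 and 85.8 CPM in the 3 knockouts, against 111, 132 and 113 CPM in the 3 controls. Every knockout library was below every control library. This was a log2 fold change of -0.40 ± 0.10 (SE, adjusted p = 0.0136), with a mean of 89.9 ± 4.31 CPM in the knockouts and 119 ± 11.4 CPM in the controls (SD, n = 3 each). In the authors' FPKM, which are scaled by library total and transcript length, the same gene averaged 9.95 ± 0.732 in the knockouts and 10.3 ± 0.859 in the controls, and the groups overlapped. With library sizes alone the log2 fold change was -0.03 (adjusted p = 0.837), where all genes had a median of 0.41, and without knockout 1 the call was lost (adjusted p = 0.0503). Of the exonic bases of Yap1, 116 are shared with a gene model on the other strand (Gm20416), and whether the authors' counting used strand is not given in the sources used here.

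Wwtr1 (ENSMUSG00000027803, chr3:57455649-57575910, minus strand), which encodes TAZ, was at 54.3, 29.1 and 57.0 CPM in the knockouts, against 19.2, 41.1 and 43.5 CPM in the controls. Knockout 2 and control 1 stood apart from the other libraries of their groups, and the groups overlapped. Its log2 fold change of 0.43 ± 0.35 (SE) did not pass (adjusted p = 0.374). It stood between 0.14 and 0.68 when each library was left out in turn. The highest of the 3 controls was 2.26 times the lowest, a ratio reached by 2.61% of the 4792 tested genes whose control mean was within 2-fold of that of Wwtr1. In the knockouts the ratio was 1.96, reached by 3.00% of 4902 genes of like level. The ratio of Wwtr1 to Yap1 in FPKM was 1.18, 0.598 and 1.29 in the knockouts, against 0.336, 0.604 and 0.744 in the controls. The log2 ratio was higher by 0.861 in the knockouts with overlapping groups, or by 0.529 without control 1 and 1.21 without knockout 2, and an exact two-sided permutation test gave p = 0.3 (3 against 3 cannot go below 0.1).

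By the root mean square difference in mean-centred log2(CPM + 0.5) over the 6 libraries, the tested genes closest to Yap1 were Secisbp2l (0.028), Wars, which charges tryptophan transfer RNA (0.032), and Selenok, a selenoprotein of the endoplasmic reticulum (0.032). Those closest to Wwtr1 were Dynlt1-ps1 (0.12), Hoxaas2 (0.16) and Ticrr, a replication initiation factor (0.16). Ticrr was under 1 CPM in every library. Many genes share a 2-group pattern over 6 libraries, so the likeness is a description only.

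The TEAD proteins hold the DNA-binding domain through which YAP and TAZ act, and each is encoded by a gene of its own. In FPKM, which can be set side by side between genes, Tead3 had the highest mean of the 4 TEAD genes in both groups, at 2.42 ± 0.620 in the knockouts and 1.52 ± 0.113 in the controls. In the controls its values overlapped those of Tead1, the next in order. The mean FPKM of Tead2, Tead1 and Tead4 in the knockouts were 0.994, 0.897 and 0.626, and neighbours in that order overlapped. In the controls Tead1, Tead2 and Tead4 were at 1.3, 0.218 and 0.203 FPKM, and Tead2 and Tead4 overlapped.

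Tead2 (ENSMUSG00000030796, chr7:45215753-45233644, plus strand) was the TEAD gene that rose. It was at 5.57, 4.88 and 3.60 CPM in the knockouts, against 1.91, 1.33 and 0.770 CPM in the controls. Every knockout library was above every control library. Tead2 had a log2 fold change of 1.81 ± 0.37 (SE, adjusted p = 0.00657), and it stood between 1.53 and 2.15 when each library was left out in turn, with no call lost. At 4 deposited counts to a read pair, the control values rest on about 27, 20 and 11 read pairs. In Tead2, 13 exonic bases are shared with Cd37 on the other strand.

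Tead4 (ENSMUSG00000030353, chr6:128224288-128300823, minus strand) was at 3.05, 2.46 and 1.08 CPM in the knockouts, against 1.14, 0.974 and 0.633 CPM in the controls. Knockout 3 was low and overlapped the controls in CPM. Its log2 fold change of 1.26 ± 0.46 (SE) did not pass (adjusted p = 0.0674). It passed by DESeq2 (adjusted p = 0.0365) and without knockout 3, at a log2 fold change of 1.59 (adjusted p = 0.0246). With library sizes alone it passed at 1.64 (adjusted p = 0.0265), where all genes had a median of 0.41.

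Tead3 (ENSMUSG00000002249, chr17:28331671-28350663, minus strand) was at 11.4, 19.3 and 17 CPM in the knockouts, against 12.1, 12.2 and 13.7 CPM in the controls. Knockout 1 lay below all 3 controls and the other knockouts above them. For Tead3 the log2 fold change of 0.33 ± 0.20 (SE) did not pass (adjusted p = 0.236), and was 0.52 without knockout 1 (adjusted p = 0.0382). With library sizes alone it was 0.69 (adjusted p = 0.0245), where all genes had a median of 0.41.

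Tead1 (ENSMUSG00000055320, chr7:112679318-112906807, plus strand) was at 10.1, 17.1 and 8.43 CPM in the knockouts, against 26.9, 5.62 and 33.3 CPM in the controls. Control 2 was the lowest of all 6 libraries, and the other controls were the highest. Over all 6 libraries the log2 fold change of -0.89 ± 0.58 (SE) did not pass (adjusted p = 0.272). Without control 2 it was -1.34 (adjusted p = 0.0163). The highest control was 5.91 times the lowest, a ratio reached by 0.373% of the 4830 tested genes of like control level. In all 5 other comparisons of Tead1 that left out 1 library it did not pass.

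Summed over Tead1 to Tead4, the FPKM were 4.62, 6.06 and 4.14 in the knockouts, against 3.64, 2.20 and 3.89 in the controls. In these FPKM the groups did not overlap, and the exact two-sided permutation p was 0.1, the smallest that 3 against 3 allows. Divided by the TMM factors, an alternative chosen after seeing the data, the sums were 4.0, 5.23 and 3.78 in the knockouts, against 4.10, 2.53 and 4.40 in the controls, and the groups overlapped (exact permutation p = 0.6). The summed CPM averaged 34.7 ± 7.87 in the knockouts and 36.9 ± 14.8 in the controls (SD, n = 3 each), also with overlap, so the order of the groups depended on the scale. The share of the FPKM sum held by Tead2 was 25.9%, 17.3% and 17.8% in the knockouts, against 8.57%, 9.87% and 3.24% in the controls. These shares did not overlap, with a difference of 13.1 percentage points and an exact two-sided permutation p of 0.1, or 0.4 adjusted over the 4 shares. The share of Tead3 averaged 49.4% ± 11.1 in the knockouts and 49.4% ± 14.0 in the controls (SD, n = 3 each), and the difference ranged from -5.48 to 8.11 percentage points when each library was left out in turn. Tead1 held 17.7% ± 3.51 in the knockouts and 36.6% ± 19.1 in the controls, and Tead4 held 12.6% ± 6.05 in the knockouts and 6.78% ± 3.07 in the controls, with overlap for both. The difference in the Tead1 share ranged from -29.8 to -11.8 percentage points when each library was left out.

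**Figure D2:**
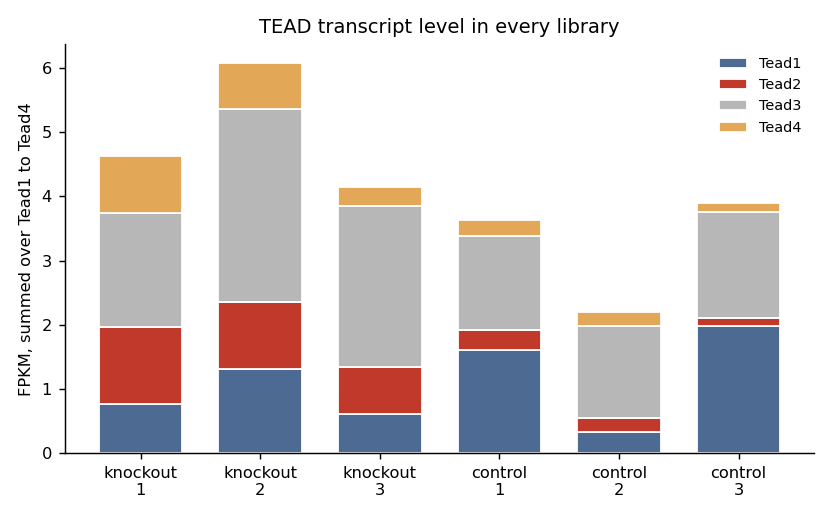
FPKM of Tead1, Tead2, Tead3 and Tead4 stacked in each library, knockouts left of controls. Tead3 is a large part of every bar, the Tead2 part is larger in each knockout, and control 2 has the smallest Tead1 part and the smallest sum (2.20).

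Ankrd1, Amotl2, Axl and Ajuba are tied to the pathway in different ways, and their promoters are shown with that of Tead2, so that the 4 genes that rose can be set beside Ajuba, which did not pass. Ankrd1 encodes a nuclear ankyrin repeat protein and is a widely used YAP and TEAD reporter gene. Amotl2 encodes an angiomotin that is both a YAP target and a YAP-binding junction protein. Axl encodes the receptor tyrosine kinase for Gas6, a YAP target that macrophages and stellate cells of the liver also express. Ajuba encodes a LIM protein that binds LATS kinases. The sequences are the 250 bases before the RefSeq transcription start in GRCm38.p6, 5′ to 3′ on the strand of the gene, at chr19:36119845-36120094 (minus strand) for Ankrd1, chr7:25788734-25788983 (minus) for Axl, chr9:102717554-102717803 (plus) for Amotl2, chr7:45215542-45215791 (plus) for Tead2 and chr14:54577662-54577911 (minus) for Ajuba. Capitals mark the TEAD core motif CATTCC, or GGAATG where it lies on the other strand.
Ankrd1: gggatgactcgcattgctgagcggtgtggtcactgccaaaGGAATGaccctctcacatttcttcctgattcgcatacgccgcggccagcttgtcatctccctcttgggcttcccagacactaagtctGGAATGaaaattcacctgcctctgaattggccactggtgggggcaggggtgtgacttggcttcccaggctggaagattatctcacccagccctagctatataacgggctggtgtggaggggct
Axl: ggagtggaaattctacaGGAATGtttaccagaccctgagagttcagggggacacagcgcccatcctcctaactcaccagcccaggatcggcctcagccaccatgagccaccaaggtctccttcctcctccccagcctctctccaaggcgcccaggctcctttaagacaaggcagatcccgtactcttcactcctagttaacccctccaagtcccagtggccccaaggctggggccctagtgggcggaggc
Amotl2: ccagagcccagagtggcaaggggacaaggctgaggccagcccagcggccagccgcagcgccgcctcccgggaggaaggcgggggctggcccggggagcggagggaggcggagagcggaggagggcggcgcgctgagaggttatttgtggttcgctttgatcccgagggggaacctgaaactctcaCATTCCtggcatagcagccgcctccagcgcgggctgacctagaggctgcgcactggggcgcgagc
Tead2: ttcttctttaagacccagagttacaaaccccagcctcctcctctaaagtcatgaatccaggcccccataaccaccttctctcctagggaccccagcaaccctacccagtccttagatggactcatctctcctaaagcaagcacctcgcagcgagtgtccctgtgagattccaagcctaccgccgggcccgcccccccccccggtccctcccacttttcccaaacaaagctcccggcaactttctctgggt
Ajuba: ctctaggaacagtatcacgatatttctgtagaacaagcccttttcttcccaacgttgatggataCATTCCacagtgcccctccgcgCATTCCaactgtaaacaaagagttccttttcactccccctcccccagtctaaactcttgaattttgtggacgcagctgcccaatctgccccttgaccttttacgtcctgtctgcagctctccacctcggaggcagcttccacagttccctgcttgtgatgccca

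In these windows Ankrd1 had matches that begin 210 and 123 bases before the start, Axl had 1 at 233 bases, Amotl2 had 1 at 65 bases and Ajuba had matches at 186 and 164 bases, with no match overlapping another. The Tead2 window held none. RefSeq windows were found for 8 of the 10 genes, and the 8 were all but Tead1 and Tead4. Of these, 7 had a match in at least 1 window, and Yap1 and Wwtr1, which did not rise, were among them. In the same search 14.4% of 27018 genes had a match in any of their windows, and 12.6% of 32807 windows had at least 1. The members were chosen as genes of a TEAD pathway, so their share is not independent of the motif. Genes with a match rose, fell or did not pass, and Ajuba, with as many matches as Ankrd1 in its window, did not pass. Only the 250 bases before each start were searched, and whether the motif bears on the calls was not tested.

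Ankrd1 (ENSMUSG00000024803, chr19:36111961-36119910, minus strand) had the highest fold change of the 10. It was at 13.9, 14.4 and 14.3 CPM in the knockouts, against 0.607, 1.54 and 1.64 CPM in the controls. The knockouts were nearly equal to each other, and the highest control was far below the lowest knockout. The mean was 14.2 ± 0.260 CPM in the knockouts and 1.26 ± 0.570 CPM in the controls (SD, n = 3 each), 11.3 times as high. On the log2 scale the change was 3.49 ± 0.35 (SE, adjusted p = 0.000304). It stood between 3.16 and 3.72 when each library was left out in turn, with no call lost. The control values rest on about 8, 22 and 24 read pairs. In FPKM, Ankrd1 was the sixth of the 10 genes in the knockouts, at 5.04 ± 0.162, and the eighth in the controls, at 0.346 ± 0.154.

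Axl (ENSMUSG00000002602, chr7:25757273-25788705, minus strand) had the highest level of the 10 in both groups, at 54.1 ± 2.60 FPKM in the knockouts and 17.2 ± 0.474 FPKM in the controls (SD, n = 3 each). It was at 270, 268 and 260 CPM in the knockouts, against 103, 111 and 108 CPM in the controls. The libraries of each group lay close together and the groups were wide apart. Its log2 fold change was 1.3 ± 0.08 (SE, adjusted p = 4.4e-05), the smallest adjusted p of the 10, and between 1.27 and 1.33 when each library was left out. Summed macrophage markers were also higher, at 3180 to 3440 CPM in the knockouts and 1400 to 1590 CPM in the controls. So were summed stellate cell and myofibroblast markers, at 2710 to 3110 CPM in the knockouts and 912 to 1010 CPM in the controls. The part of either cell type in the level of Axl was not tested.

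Amotl2 (ENSMUSG00000032531, chr9:102716672-102733418, plus strand) was at 65.4, 66.6 and 70.6 CPM in the knockouts, against 45.3, 55.1 and 58.1 CPM in the controls. The groups did not overlap, and control 1 was the lowest library. Amotl2 had a log2 fold change of 0.35 ± 0.11 (SE, adjusted p = 0.0383). The call was lost when any library other than control 3 was left out, with an adjusted p of 0.0702, 0.0834 and 0.0959 without knockouts 1, 2 and 3, and of 0.0924 and 0.0627 without controls 1 and 2. In FPKM the difference was larger, 11 ± 0.148 in the knockouts and 6.75 ± 0.817 in the controls.

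Ajuba (ENSMUSG00000022178, chr14:54567472-54577558, minus strand) was at 36.3, 28.2 and 35.5 CPM in the knockouts, against 38.3, 25.6 and 29.4 CPM in the controls. Control 1 was the highest and control 2 the lowest of all libraries, and the groups overlapped. Its log2 fold change of 0.10 ± 0.17 (SE) did not pass (adjusted p = 0.691). It was the only member whose sign changed in any alternative, to -0.02 without control 2.

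**Figure D3:**
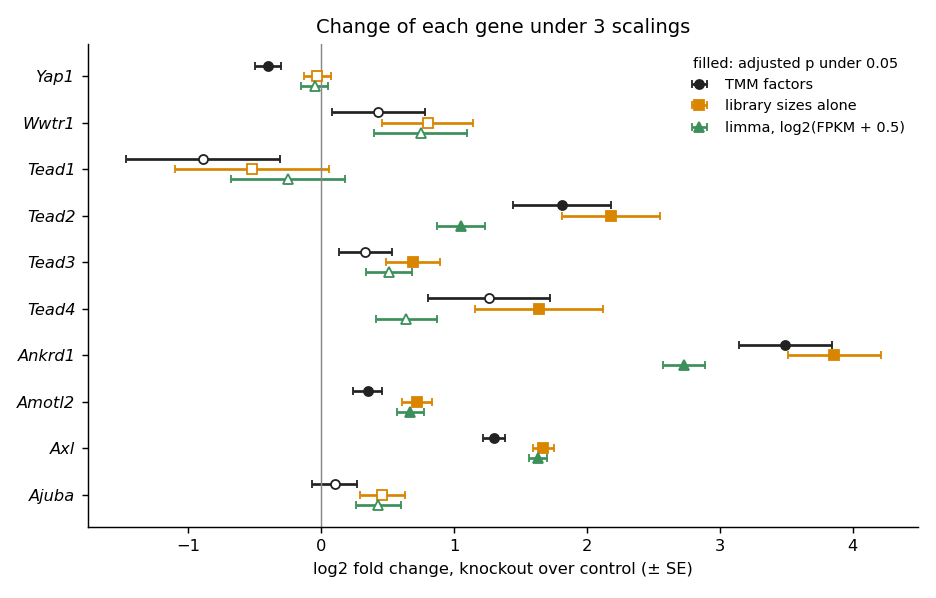
Log2 fold change of each gene, knockout over control, with its SE, from edgeR with TMM factors, edgeR with library sizes alone and limma on log2(FPKM + 0.5), a scale that understates the change of genes at low FPKM. Ankrd1, Axl, Tead2 and Amotl2 pass under all 3, whereas Yap1 passes only with TMM factors among them (filled symbols).

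Of the other Hippo pathway genes Ptpn14, Wtip and Amotl1, which rose, had the smallest p-values, while Rassf6, Taok3 and Lats1 fell. Of 39 listed kinases and regulators, 36 were tested, of which 14 rose, 3 fell and 19 did not pass, against 19.9% of all tested genes higher and 18.0% lower. Their median log2 fold change was 0.20. Under library sizes alone 26 rose and 0 fell, at a median of 0.56, against 34.1% of all tested genes higher and 6.60% lower. The list median exceeded that of all tested genes by 0.15 under both scalings, a difference that a near-equal shift of every gene leaves unchanged. Ptpn14, a phosphatase that binds YAP and holds it in the cytoplasm, was at 53.9 ± 5.95 CPM in the knockouts and 11.8 ± 2.37 CPM in the controls. It had a log2 fold change of 2.19 ± 0.17 (SE, adjusted p = 0.000108). Wtip, a LIM protein of the Ajuba family, rose by 1.86 ± 0.16 on the log2 scale. The angiomotins Amotl1 and Amot, which bind YAP and TAZ, rose by 1.17 ± 0.10 and 0.67 ± 0.09. The junctional scaffold Dlg5 rose by 1.07 ± 0.10 and Map4k4, a kinase that can phosphorylate LATS, by 0.87 ± 0.10.

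The 3 Hippo genes that fell were Rassf6, Taok3 and Lats1. Rassf6, a scaffold that binds MST kinases, was at 9.40 ± 1.0 CPM in the knockouts and 15.7 ± 1.82 CPM in the controls (log2 fold change -0.74 ± 0.15 SE, adjusted p = 0.00567). Taok3, a kinase upstream of MST, had a log2 fold change of -0.45 (adjusted p = 0.0396). Lats1, which phosphorylates YAP, was at 45.5 ± 2.10 CPM in the knockouts and 58.8 ± 8.18 CPM in the controls, a log2 fold change of -0.37 (adjusted p = 0.0403). With library sizes alone none of the 3 passed and Lats1 stood at 0.00029. Leaving out a library ended the call of Taok3 and of Lats1 in 5 of 6 cases each, with adjusted p up to 0.124 and 0.125. The 7 genes of the core cassette, picked out after their values were seen, were Stk3 and Stk4 (the MST kinases), Sav1, Mob1a, Mob1b, Lats1 and Lats2. Of these 0 rose, 1 fell (Lats1) and 6 did not pass, and those 6 had log2 fold changes between -0.27 and 0.22. With library sizes alone, where the median of all genes was 0.41 and 34.1% of them were called higher, 5 of the 7 passed as higher.

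Among other genes known as YAP, TAZ or TEAD targets in cell lines or liver, Spp1, Dlc1 and Arhgef17 had the smallest p-values. Of 48 listed, 47 were tested and Foxf2 was at 0 in every library. Of the 47, 27 rose, 6 fell and 14 were without a call, at a median log2 fold change of 0.79, against 19.9% of all tested genes higher and 18.0% lower. The pathway lists, like the members, were chosen with earlier results of these data known. Spp1, the matrix protein osteopontin, was at 980 ± 88.5 CPM in the knockouts and 52.6 ± 8.22 CPM in the controls (log2 fold change 4.22 ± 0.15 SE, adjusted p = 1.11e-05). Ccn2, connective tissue growth factor, was at 192, 180 and 243 CPM in the knockouts, against 54.0, 62.1 and 56.0 CPM in the controls. The groups were far apart, with a log2 fold change of 1.84 ± 0.13 (SE, adjusted p = 8.24e-05). The tumour suppressor Dlc1 rose by 1.67 ± 0.09 on the log2 scale, Arhgef17 by 2.00 ± 0.11, the membrane repair protein Myof by 1.72 ± 0.10 and the secreted protein Ccdc80 by 1.85 ± 0.13.

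The 6 targets that fell were Cdc20, Ect2, Birc5, Dock5, Ccnd1 and Lmnb2. Cdc20, which activates the anaphase-promoting complex, was at 2.24 ± 0.788 CPM in the knockouts and 12.4 ± 4.96 CPM in the controls (log2 fold change -2.47 ± 0.35 SE, adjusted p = 0.00146). Ect2, which is needed for cytokinesis, stood at -1.44 and Birc5, the survivin gene, at -1.15 on the log2 scale. Dock5, an exchange factor for Rac, stood at -0.62, Ccnd1, cyclin D1, at -0.43 and Lmnb2, lamin B2, at -0.39. With library sizes alone only Cdc20, Ect2 and Birc5 of the 6 still passed. Leaving out a library ended the call of Ccnd1 in 4 of 6 cases and that of Lmnb2 in 5 of 6, with adjusted p up to 0.0966 and 0.122. The target list shares 4 genes with the Hippo list (Amotl1, Fjx1, Lats2 and Ptpn14), and neither shares any with the 10 members.

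**Figure D4:**
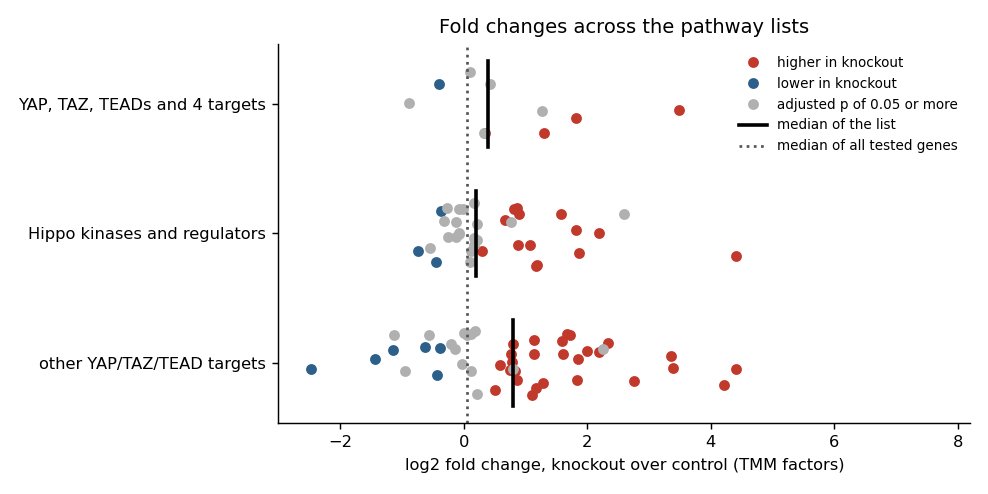
Log2 fold change, knockout over control, of each tested gene in the 3 lists, coloured by call, with the median of each list and the median of all tested genes (0.05). The targets have a median of 0.79 and the Hippo kinases and regulators one of 0.20.

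Marker genes of several liver cell types moved with the genotype, where 19.9% of all tested genes were higher and 18.0% lower. Of 14 cholangiocyte and ductular markers, 13 rose and 0 fell, and their summed level was 1230 to 1420 CPM in the knockouts and 105 to 122 CPM in the controls. The most abundant were Spp1 and Cd24a. Spp1, at 980 ± 88.5 CPM in the knockouts and 52.6 ± 8.22 CPM in the controls, made up most of the knockout sum. Cd24a was at 59.1 ± 5.58 CPM in the knockouts and 4.82 ± 0.610 CPM in the controls. Of 16 stellate cell and myofibroblast markers, 15 rose and 0 fell, summing to 2710 to 3110 CPM in the knockouts and 912 to 1010 CPM in the controls. They were led by Dcn, at 809 ± 63.5 CPM in the knockouts and 330 ± 12.7 CPM in the controls, and Col3a1, at 507 ± 34.2 CPM in the knockouts and 136 ± 27.7 CPM in the controls. Of 13 macrophage and Kupffer cell markers, 12 rose and 0 fell, and the most abundant, Cd5l and Lyz2, rose by 0.95 and 1.25 on the log2 scale. Hepatocyte markers went the other way: 10 of 12 fell and 0 rose, summing to 55300 to 69800 CPM in the knockouts and 96100 to 119000 CPM in the controls, and Alb and Cyp2e1 stood at -0.81 and -1.28 on the log2 scale.

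Sinusoidal endothelial markers summed to 664 to 759 CPM in the knockouts and 696 to 759 CPM in the controls, with 2 of 12 higher and 2 lower. Stab1 rose by 0.71 on the log2 scale, and Stab2 stood at -0.16 without passing. Of 8 vascular endothelial markers 4 rose and 0 fell, with sums of 220 to 238 CPM in the knockouts and 161 to 172 CPM in the controls. Cd34 rose by 3.22 on the log2 scale and Plvap stood at -0.01 without passing. Lymphocyte markers summed to 6.12 to 8.11 CPM in the knockouts and 4.39 to 4.79 CPM in the controls, with 3 of 8 higher and 1 lower, and Cd8a was higher by 2.20 on the log2 scale while Nkg7 stood at 0.99 without passing. Neutrophil markers summed to 36.1 to 44.1 CPM in the knockouts and 16.5 to 21.4 CPM in the controls, with 3 of 6 higher and Csf3r higher by 1.43 on the log2 scale while S100a9 stood at 0.35 without passing. Of 6 mesothelial markers 2 rose and 2 fell, with sums of 12.1 to 17.9 CPM in the knockouts and 8.96 to 13.5 CPM in the controls, at a list median of -1.23 on the log2 scale. The most abundant, Gpm6a and Wt1, rose by 1.33 and 1.87, while Upk3b and Upk1b, named after their values were seen, fell. No marker was at 0 in all knockouts. Ngp, 1 of the 3 neutrophil markers called higher, was at 0 in all controls and at only 0.149 ± 0.0113 CPM in the knockouts. It passed the count filter through the knockouts alone, so a call for it could only be higher. Under library sizes alone the medians of the lists kept their sign except that of sinusoidal endothelial markers, which was 0.19 in place of -0.18.

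The part of these cell types in the levels of the 10 genes was not tested. Of the other targets, 5 are also on marker lists, Spp1 among them. Without these 5, 23 of 42 targets rose and 6 fell, with a median log2 fold change of 0.77. This drops only genes on the short marker lists, so it does not test the part of cell types in the other targets.

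**Figure D5:**
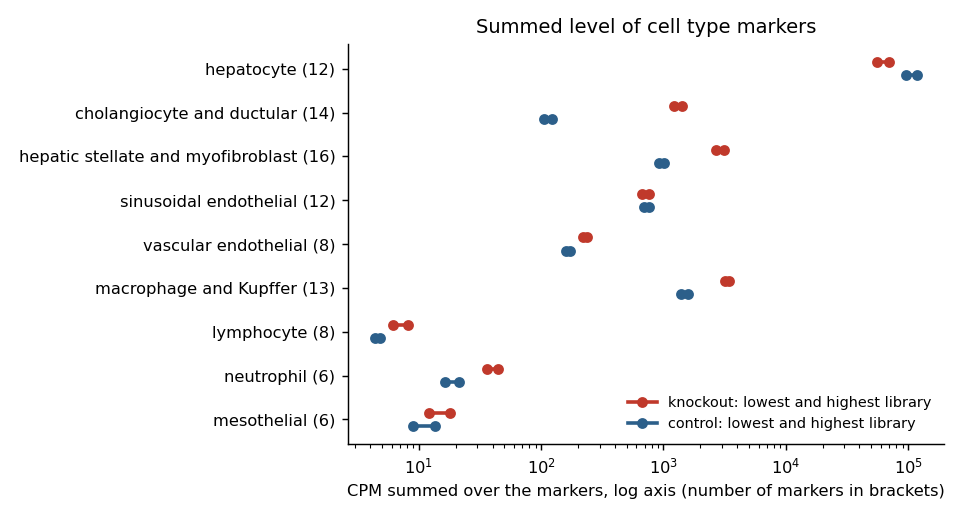
CPM summed over the markers of each cell type on a log axis, with the knockout range above the control range, each from the lowest to the highest of 3 libraries. Cholangiocyte and ductular markers show the widest gap (1230 to 1420 CPM in the knockouts, against 105 to 122 CPM in the controls), and the ranges of sinusoidal endothelial and mesothelial markers overlap.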

How the data were processed

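Liver poly(A) RNA of 3 Prdx1(lox/lox);Alb-cre and 3 Prdx1(lox/lox) mice was sequenced as strand-marked read pairs with molecular identifiers, per the labels' protocols. The submitters' processing notes name HISAT2 2.0.4, StringTie 1.3.4d, cutadapt 1.9, edgeR, UMI-tools and DESeq2, with no role or order. The notes list the build mm9, but 94.2% of the gene identifiers found in GENCODE M21 have the same start and end there, so positions are in GRCm38. Of the columns, wt was taken as Prdx1(lox/lox), the only other genotype.

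The deposited counts are estimated counts, whole numbers not scaled between libraries. Low values pile up at multiples of 4 (854 genes at 4 in control 1, against 280 at 3 and 167 at 5), so a read pair was taken as 4 counts, the planned count test was run on them as estimated counts, and no counting intervals are given. The deposited FPKM, made by the authors, are per transcript length and library total.

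In R 4.3.3, edgeR 4.0.16 (filterByExpr with a minimum count of 10, TMM factors, glmQLFTest, two-sided, genotype as the only term, Benjamini-Hochberg adjustment over 18931 genes, threshold 0.05) gave the results. SE was taken from the F statistic. Single values were compared by exact permutation. Where a symbol had more than 1 entry, the entry of highest mean count was used. Beyond the 10 members, the 6 genes with the smallest p in each pathway list, up to 6 called against its majority, and the 2 most abundant markers of each cell type were named. Members and lists were chosen with earlier results of these data known. Alternatives were DESeq2 1.42.0, RLE factors, library sizes alone, no count filter, limma 3.58.1 on log2(FPKM + 0.5, 1 or 0.1), no FPKM filter in place of a mean of 0.1, counts divided by 4, a replicate block and leaving out each library. Fits were tested on simulated data.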

Additional observations from a re-analysis of the deposited data

How the results depend on the processing

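The fold changes of the 10 members, Prdx1 and the named pathway genes, and the counts of calls over the members, the pathway lists and all genes, were recomputed under 16 alternatives, 6 of which left out 1 library. Marker lists were recomputed under 3 scalings only, and the TEAD shares and the Wwtr1 to Yap1 ratio with CPM and without each library. Ankrd1, Axl and Tead2 kept their direction and call in all 16. The balance of calls moved with the scaling. Scaling by library sizes alone called 6459 genes higher and 1249 lower, with a median log2 fold change over all genes of 0.41 in place of 0.05. With limma on FPKM with a pseudocount of 0.5, 1 and 0.1, the genes higher were 6235, 6196 and 6239 and those lower 1318, 1302 and 1322, and without the FPKM filter they were 5877 and 1108. Under these 5 settings the members called lower were 0, since Yap1 stood at -0.03, -0.05, -0.04, -0.05 and -0.05. Hippo genes higher were 26 with library sizes alone and 23 under each limma setting, with 0 lower under all 5. Hippo genes lower were 1 with no count filter. Other targets lower were 3 with library sizes alone, 2 with limma at a pseudocount of 0.5 and 1 under the other limma settings. Lats1 changed sign with library sizes alone (0.00029). With library sizes alone Tead3 passed at 0.69 and Tead4 at 1.64, and Tead4 passed with DESeq2 at 1.25. The causes were not tested.

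Leaving out 1 library at a time gave 0 to 2 members and 1 to 4 Hippo genes lower. Log2 fold changes ranged from -0.45 to -0.32 for Yap1, -1.34 to -0.45 for Tead1, 0.16 to 0.52 for Tead3, 0.96 to 1.59 for Tead4, 0.25 to 0.43 for Amotl2 and -0.02 to 0.28 for Ajuba. Ajuba stood at -0.02 without control 2. The TEAD sum, higher by 1.70 FPKM in the knockouts, was higher by 0.658 with TMM factors, and the share of Tead3 differed by 6.93 percentage points in CPM.

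The labels do not say that replicate numbers pair the mice. Deviations from the group means correlated at 0.016, 0.031 and 0.035 between equal numbers and at -0.028 to -0.003 between unequal numbers. Each library thus correlated best with its own number. Correlations this small, with 3 libraries per group, cannot show whether mice were paired. With the replicate block 3269 genes were higher and 3207 lower, 4 members were called higher and 1 lower, and of the results named here only the call of Lmnb2 was lost (adjusted p = 0.0610). At about 8 to 27 read pairs in the controls, the folds of Ankrd1, Tead2 and Tead4 are limited by depth.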
